A study of Mus musculus with 8 samples.

Results

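The macrophage chemokine ligands examined here are 10 genes, chosen by symbol: Ccl2, Ccl3, Ccl4, Ccl6, Ccl7, Ccl9, Cxcl2, Cxcl10, Cxcl16 and Pf4. All 10 were among the 11541 genes of the deposited count table and all 10 were tested. They were followed in primary mouse macrophages grown from bone marrow, which the labels divide by genotype into an Ogfrl1 knockout group (KO, 4 libraries) and a wild-type group (4 libraries). Both groups had received the same treatment, macrophage colony-stimulating factor (M-CSF) at 25 ng/mL for 4 days, and no inflammatory stimulus is named for either. The labels give neither the age, sex or strain of the mice nor the form of the Ogfrl1 allele, and they do not say whether each library came from a separate animal, and all tests below therefore rest on a spread among libraries that may be technical in part.

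Chemokines are small secreted proteins that draw leukocytes along a gradient by binding G protein-coupled receptors. The CC ligands act mainly on monocytes, macrophages and lymphocytes, whereas CXC ligands act on neutrophils or lymphocytes depending on the receptor. Many of these genes are switched on in macrophages by the transcription factor NF-kB or by interferon, while others are transcribed at rest. M-CSF, the growth factor used for the culture, keeps macrophages alive and dividing and also yields the precursors of bone-resorbing osteoclasts.

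The cell type label was checked first. All 12 genes listed for macrophage identity were counted in every library. Among them were the M-CSF receptor gene Csf1r, Adgre1, which encodes the F4/80 antigen, and the lysozyme gene Lyz2. Cd63 was in this list too. Together the 12 genes summed to 21394 to 23106 CPM (library-scaled counts) in the KO group and 19129 to 22081 CPM in the wild-type group. Most of these sums came from Lyz2 alone, with 14222 to 15891 CPM in the KO group and 12252 to 14962 CPM in the wild-type group. None of the 5 B cell, 5 T and NK cell or 5 erythroid markers was among the tested genes. Every gene of the deposited table reached at least 0.50 CPM (before TMM scaling) in 4 libraries, so an absent gene was not shown to be without reads. Library totals ranged from 39601341 to 61556269 counts. Wild-type replicates 1 and 2 stood apart: their scores on the first principal component, which carried 70.8% of the variance, were 42.9 and 37.1, against -24.6 to 7.3 for the other 6 libraries. They had the lowest shares of ribosomal RNA reads (1.79 and 1.83%, against 2.71 to 9.10%), the highest shares of mitochondrial reads (6.07 and 7.03%, against 1.49 to 3.17%) and the lowest shares of uniquely mapped reads (76.4 and 75.8%, against 83.8 to 87%). Ogfrl1 itself had 146 to 197 CPM in the KO group and 135 to 284 CPM in the wild-type group, with the 2 highest values in wild-type replicates 1 and 2, so the whole-gene counts did not check the genotype labels.

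Upstream sequence was at hand for 6 of the 10 genes in the RefSeq promoter table (GRCm38.p6): Ccl3, Ccl6, Ccl9, Cxcl2, Cxcl10 and Pf4. On both strands of the 250 bases before the start site 4 motifs were searched for: GGGA, any 4 bases and CC for NF-kB, GAAA, any 2 bases and GAAA for the interferon-stimulated response element (ISRE), TGANTCA for AP-1 and AGGAAGT for PU.1, the myeloid transcription factor encoded by Spi1. They occurred in 17.63%, 2.98%, 6.75% and 7.69% of 32851 mouse promoter windows of this length. The windows of Cxcl2 and Cxcl10 are shown because they hold the NF-kB letters and belong to the 2 least abundant ligands, and those of Ccl9 and Ccl6 because they hold none of the NF-kB letters and belong to abundant ligands. Each is written 5′ to 3′ on the strand of the gene and ends at the base before the start site, with motif matches in capitals.
Cxcl2 (chr5:90903649-90903898, plus strand): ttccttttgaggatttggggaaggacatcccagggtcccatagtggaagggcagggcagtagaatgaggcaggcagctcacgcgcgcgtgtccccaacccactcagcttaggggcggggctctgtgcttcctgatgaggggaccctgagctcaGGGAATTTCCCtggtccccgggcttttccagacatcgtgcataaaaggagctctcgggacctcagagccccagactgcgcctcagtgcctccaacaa
Cxcl10 (chr5:92348890-92349139, minus strand): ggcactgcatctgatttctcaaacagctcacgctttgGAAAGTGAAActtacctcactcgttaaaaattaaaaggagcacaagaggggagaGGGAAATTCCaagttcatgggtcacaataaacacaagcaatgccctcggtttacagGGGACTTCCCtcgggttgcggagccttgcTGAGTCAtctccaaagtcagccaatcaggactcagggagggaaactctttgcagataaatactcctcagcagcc
Ccl9 (chr11:83578637-83578886, minus strand): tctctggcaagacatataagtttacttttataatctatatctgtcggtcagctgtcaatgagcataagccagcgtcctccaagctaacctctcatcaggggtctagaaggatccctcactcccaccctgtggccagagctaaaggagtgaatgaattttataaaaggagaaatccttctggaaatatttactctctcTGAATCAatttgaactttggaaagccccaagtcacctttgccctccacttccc
Ccl6 (chr11:83593088-83593337, minus strand): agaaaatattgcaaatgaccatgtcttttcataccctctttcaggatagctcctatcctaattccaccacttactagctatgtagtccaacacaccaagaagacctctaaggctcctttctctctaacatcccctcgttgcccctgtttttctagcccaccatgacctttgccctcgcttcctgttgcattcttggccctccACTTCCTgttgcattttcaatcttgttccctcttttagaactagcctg
In Cxcl2 the capitals cover 2 overlapping NF-kB matches, 1 on each strand, from 97 to 87 bases before the start site. In Cxcl10 they mark, in order, the ISRE at 213 to 204 bases, NF-kB matches at 159 to 150 and at 103 to 94 bases, and AP-1 at 74 to 68 bases before the start site. Ccl9 held 1 AP-1 match at 53 to 47 bases, and Ccl6 held 1 PU.1 match on the opposite strand at 48 to 42 bases. Pf4 likewise held 1 PU.1 match, at 10 to 4 bases, and the window of Ccl3 held none of the 4 motifs. These are matches of letters and not sites shown to be bound. Windows of Ccl2, Ccl4, Ccl7 and Cxcl16 were not at hand, and a relation between letters and level was not tested.

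The CC ligand genes lie in clusters. Ccl2 (chromosome 11, 82035577 to 82037452, plus strand, 3 exons) and Ccl7 (82045712 to 82047523, plus, 3 exons) are neighbours, and further along the same chromosome are Ccl9 (83572917 to 83578636, minus, 4 exons), Ccl6 (83587886 to 83593087, minus, 4 exons), Ccl3 (83647843 to 83649378, minus, 3 exons) and Ccl4 (83662584 to 83664683, plus, 3 exons). Cxcl16 (70454234 to 70459984, minus, 5 exons) is on chromosome 11 too. Pf4 (90772435 to 90773383, plus, 3 exons), Cxcl2 (90903899 to 90905938, plus, 4 exons) and Cxcl10 (92346639 to 92348889, minus, 4 exons) are on chromosome 5. Positions are in mm10, as deposited.

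Levels were compared between genes on the deposited log2 FPKM scale, which is per transcript length. The 10 ligands covered 7.55 log2 units, a 187-fold range. Ccl2 stood highest at 9.51 ± 0.13 (SD, n = 8 libraries), above 99.7% of the genes of the table, and Ccl7 followed at 8.92 ± 0.13. These 2 genes encode MCP-1 and MCP-3, attractants of monocytes through the receptor Ccr2. Pf4 (8.15 ± 0.14) and Ccl9 (8.05 ± 0.10) did not separate: Pf4 was above Ccl9 in 5 of 8 libraries and their ranges overlapped. Ccl6 was at 7.47 ± 0.22, below Ccl9 in all 8 libraries.

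A gap of 1.87 log2 units separated Ccl6 from the next gene, Ccl3 (5.60 ± 0.28). Ccl4 was at 5.29 ± 0.17, below Ccl3 in 7 of 8 libraries with overlapping ranges, and Cxcl16 was at 5.04 ± 0.13, below Ccl4 in all 8 libraries although the ranges overlapped. The second gap, of 2.65 log2 units, lay between Cxcl16 and Cxcl2. Cxcl2, the neutrophil attractant MIP-2, was at 2.39 ± 0.20 and Cxcl10, the interferon-induced ligand of Cxcr3, at 1.97 ± 0.30, with Cxcl2 above Cxcl10 in all 8 libraries. Both were below most genes of the table (33.7% and 28.0% of genes were lower). They were counted nevertheless by at least 223 and 173 reads in each library.

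**Figure D1:**
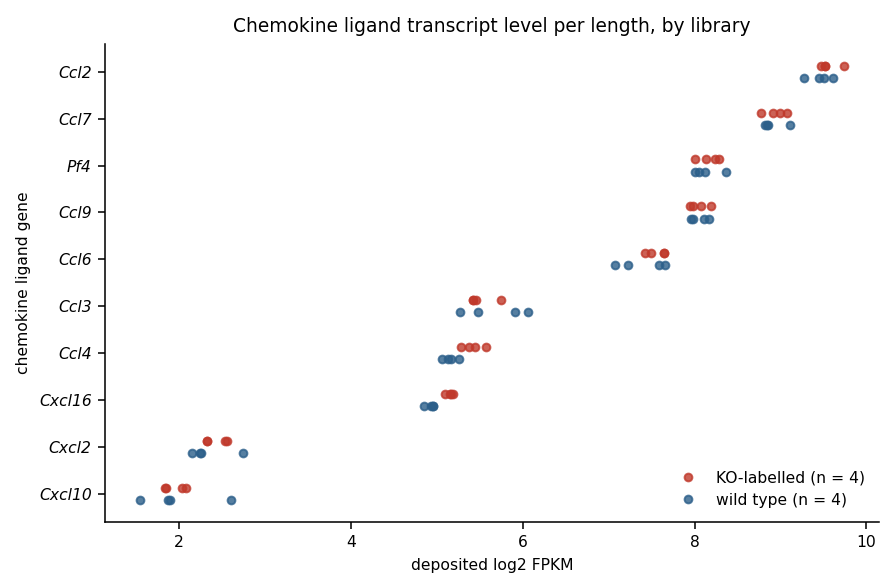
Deposited log2 FPKM (horizontal axis) of the 10 chemokine ligand genes (vertical axis, by mean level) in each of 8 libraries, 1 point per library, coloured by genotype label. Ccl2 stands highest at a mean of 9.51 and Cxcl10 lowest at 1.97, and the points of the 2 genotype labels overlap for all genes except Ccl4 and Cxcl16.

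As a share of all counted reads the 10 genes took 0.226 to 0.258% in the KO group and 0.214 to 0.236% in wild type. Ccl9, whose transcript is the longest of the 10 in the table, made up 31.8 to 36.5% of these reads and Ccl2 22 to 27.1%.

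None of the 10 ligand genes passed the test between the genotype labels. edgeR called 0 of them at an adjusted p under 0.05, as it called 0.0% of all 11541 genes. At an unadjusted p under 0.05 there were 2 of the 10, Cxcl16 and Ccl4, beside 6.52% of all genes (752 genes), and both were higher in the KO group, beside 2.01% of all genes in that direction; 0 were lower, beside 4.51%. The same 2 were the ones whose groups did not overlap, beside 2.64% of all genes, or 1.22% with the KO group higher. DESeq2 called 1 of the 10, Cxcl16, and this was the one gene it called in the table (0.00866%), with 1178 genes (10.2%) at an unadjusted p under 0.05. Cxcl16 and Ccl4 were also past that unadjusted threshold with limma-voom (4.64% of all genes), after a correction for transcript GC content that was added after seeing the data, together with Ccl7 (6.2%), without wild-type replicates 1 and 2 (0.996%) and without wild-type replicate 4 (45.1%). Log2 fold changes were positive for 7 ligands (49.3% of all genes) and negative for 3, with a median of 0.05 against -0.00 over all genes. Their median absolute size was 0.09 on the log2 scale, against 0.18 over all genes, which were not matched to the ligands for level. The 95% confidence interval lay within a 1.5-fold change in either direction for 9 of the 10, the exception being Ccl3. The share of all genes with such an interval was not computed, so whether this count is particular to the ligands is not known.

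Cxcl16 encodes a transmembrane chemokine that binds the receptor Cxcr6, also takes up oxidised lipoprotein, and is released from the cell surface by metalloproteases. In the KO group it had 86.6, 83.8, 88.3 and 89.6 CPM, and in wild type 70.4, 74.6, 75.9 and 75.9 CPM. Every KO value was above every wild-type value, and wild-type replicates 1 and 2 were the lowest of the 8. The means were 87.1 ± 2.49 and 74.2 ± 2.63 CPM (SD, n = 4 each), a difference of 17.3% (95% CI 6.84 to 28.9%), or a log2 fold change of 0.23 (SE 0.06). The unadjusted edgeR p was 0.00395, rank 6 in the table, and the adjusted p was 0.404. The exact two-sided permutation p was 0.0286, the smallest that 4 against 4 libraries allow, which groups without overlap always give. Over the 17 other settings the log2 fold change stayed between 0.20 and 0.27 and the adjusted p between 0.0456 (DESeq2) and 1.0. Without wild-type replicates 1 and 2 it was 0.20, with an unadjusted edgeR p of 0.0128 and, by exact permutation, 0.0667, the smallest p possible there. The authors' deposited table gives a log2 fold change of 0.23, a p of 0.00905 and a false discovery rate of 0.447.

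A neighbouring gene limits the Cxcl16 value. Zmynd15, which starts head to head with it, lies on the opposite strand and shares 552 of the 3021 exon bases of Cxcl16, and the strand setting used for counting is not given in the sources used here. Zmynd15 had 5.11, 3.11, 4.27 and 5.28 CPM in the KO group and 2.46, 2.90, 2.96 and 4.84 CPM in the wild-type group (log2 fold change 0.43, edgeR adjusted p 0.404). Its groups overlapped, and its log2 fold change was 0.19 without wild-type replicates 1 and 2. The part of reads from the shared bases in the Cxcl16 difference was not tested.

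Ccl4 encodes MIP-1 beta, an attractant of macrophages and T cells. The KO libraries had 25.6, 28.7, 27.3 and 31.3 CPM and the wild-type libraries 25.2, 22, 23.1 and 23.6 CPM. The groups did not overlap, but KO replicate 1 and wild-type replicate 1 nearly met at 25.6 and 25.2 CPM. The means were 28.2 ± 2.42 and 23.5 ± 1.32 CPM, a log2 fold change of 0.26 (SE 0.09, 95% CI 0.07 to 0.46). The unadjusted edgeR p was 0.0134 (rank 52) and the adjusted p 0.404. By exact permutation the p was 0.0286, again as groups without overlap always give. The difference did not depend on wild-type replicates 1 and 2 in size, as it was 0.27 without them (exact permutation p 0.133). Over the 17 other settings it ranged from 0.21 to 0.31, and the adjusted p from 0.0877 to 1.0. In the authors' deposited table the log2 fold change is 0.26, the p 0.0179 and the false discovery rate 0.447.

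Ccl3, which encodes MIP-1 alpha and lies beside Ccl4 on the other strand, binds Ccr1. It had 33.7, 42.4, 34.7 and 33.9 CPM in the KO group and 52.5, 47.5, 35.2 and 30.5 CPM in the wild-type group. Wild-type replicates 1 and 2 were the highest of all 8 and wild-type replicate 4 the lowest, so the wild-type group enclosed the KO one. The log2 fold change was -0.20 (SE 0.17, 95% CI -0.59 to 0.20; edgeR adjusted p 0.470, exact permutation p 0.371). It was 0.14 without wild-type replicates 1 and 2 and -0.09 after GC correction. The ratio of Ccl3 to Ccl4 counts ran from 1.08 to 1.48 in the KO group and reached 1.29 to 2.16 in the wild-type group, where 2.08 and 2.16 belonged to replicates 1 and 2.

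Ccl6 and Ccl9 are CC chemokines of rodents that act through Ccr1, and Ccl9 (MIP-1 gamma) is known as a product of osteoclasts and their precursors. Ccl6 had 258, 287, 246 and 287 CPM in the KO group and 214, 193, 291 and 277 CPM in the wild-type group. The 2 lowest values belonged to wild-type replicates 1 and 2, while replicates 3 and 4 lay within or above the KO range. Its log2 fold change was 0.14 (SE 0.14; edgeR adjusted p 0.495, exact permutation p 0.343) and was -0.08 without those 2 libraries and 0.25 after GC correction. Of the 50-base stretches of Ccl9, 2.0% also occur in other genes. It had 760, 876, 745 and 814 CPM against 865, 759, 832 and 747 CPM, with fully interleaved groups. Its means, 799 ± 59.3 and 801 ± 56.8 CPM, gave a log2 fold change of -0.00 (SE 0.08, 95% CI -0.19 to 0.18; edgeR adjusted p 0.979, exact permutation p 0.914), which was 0.02 without wild-type replicates 1 and 2 and 0.19 after GC correction. The ratio of Ccl6 to Ccl9 was 0.328 to 0.352 in the KO group, 0.248 and 0.254 in wild-type replicates 1 and 2, and 0.350 and 0.371 in replicates 3 and 4.

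The monocyte attractants Ccl2 and Ccl7 were the most abundant ligands per length. Ccl2 had 593, 592, 572 and 691 CPM in the KO group and 588, 564, 500 and 628 CPM in the wild-type group. The groups overlapped, with the highest value in KO replicate 4 and the lowest in wild-type replicate 3. The log2 fold change was 0.10 (SE 0.09, 95% CI -0.11 to 0.32; edgeR adjusted p 0.477, exact permutation p 0.343) and remained positive in all 17 other settings (0.04 to 0.25). Ccl7 had 385, 432, 350 and 405 CPM against 443, 366, 360 and 368 CPM. Wild-type values other than replicate 1 sat close together, and replicate 1 stood above them and above all KO libraries. Its log2 fold change was 0.03 (SE 0.10, 95% CI -0.19 to 0.25; edgeR adjusted p 0.826, exact permutation p 0.771). It was 0.11 without wild-type replicates 1 and 2. After correction for transcript GC content it was 0.21 with an unadjusted edgeR p of 0.0290 and an adjusted p of 0.539. The Ccl2 to Ccl7 ratio was alike in range, 1.37 to 1.71 in the KO group and 1.33 to 1.71 in wild type.

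Cxcl2 and Cxcl10, whose upstream sequences are printed above, were low in both groups. Cxcl2 had 5.36, 6.22, 5.38 and 6.35 CPM in the KO group and 7.24, 5.13, 5.07 and 4.77 CPM in the wild-type group. Without wild-type replicate 1, which was the highest of the 8, all KO values were above the wild-type ones. That library was singled out after seeing the values, and the share of all genes that separate in this way was not computed. The log2 fold change was 0.07 (SE 0.15, 95% CI -0.27 to 0.42; edgeR adjusted p 0.749, exact permutation p 0.629). It was 0.22 without wild-type replicate 1 (unadjusted edgeR p 0.0919, adjusted p 0.765). It was 0.24 without wild-type replicates 1 and 2, and 0.21 after GC correction. Of its 50-base stretches 5.35% also occur in Cxcl3, a close relative, so a part of its reads could be shared. Cxcl10 had 3.90, 3.92, 4.60 and 4.48 CPM against 6.66, 3.98, 4.05 and 3.17 CPM. Again replicate 1 of wild type was highest, and here replicate 4 was lowest. Its log2 fold change was -0.07 (SE 0.22, 95% CI -0.57 to 0.42; edgeR adjusted p 0.825, exact permutation p 0.857). It was 0.18 without wild-type replicate 1, 0.23 without replicates 1 and 2 of that group, and 0.01 after GC correction. Art3, on the opposite strand, shares 133 of the 2252 exon bases of Cxcl10.

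Pf4, also called Cxcl4, is best known as a heparin-binding protein of platelet granules. It had 164, 150, 178 and 183 CPM in the KO group and 164, 156, 151 and 195 CPM in the wild-type group, so that the lowest values came from 1 library of each group and the highest from wild-type replicate 4. The log2 fold change was 0.02 (SE 0.10, 95% CI -0.21 to 0.25; edgeR adjusted p 0.882, exact permutation p 0.857), which was -0.03 without wild-type replicates 1 and 2. Of 12 megakaryocyte and platelet markers 6 were tested, and 3 were higher and 3 lower in the KO group without passing the test. Their summed level was 7.34 to 10.2 CPM in the KO group and 8.14 to 9.52 CPM in the wild-type group. Per length, Itga2b, the platelet integrin gene, was at -2.31 to -0.69 and Ppbp, another platelet chemokine, at 0.50 to 1.21 on the log2 FPKM scale, whereas Pf4 was at 8.0 to 8.37. Gp9, Gp6 and 4 more of the 12 were not among the tested genes. In bulk libraries such as these, fewer cells of a type and less RNA per cell cannot be told apart.

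**Figure D2:**
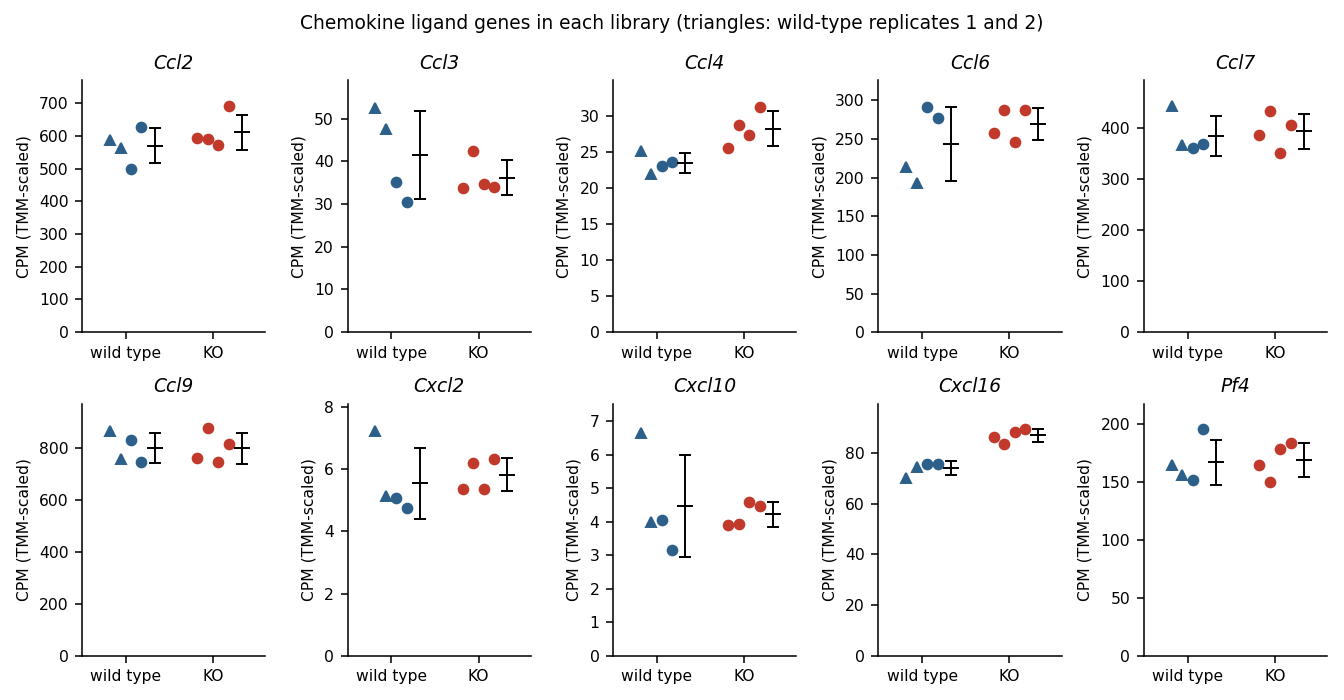
Library-scaled counts in CPM (vertical axes, each from 0) of each ligand gene in the 4 wild-type and 4 KO libraries, 1 symbol per library, with mean and SD beside them. Triangles are wild-type replicates 1 and 2; the groups are apart for Ccl4 and Cxcl16 and overlap for the other 8 genes.

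**Figure D3:**
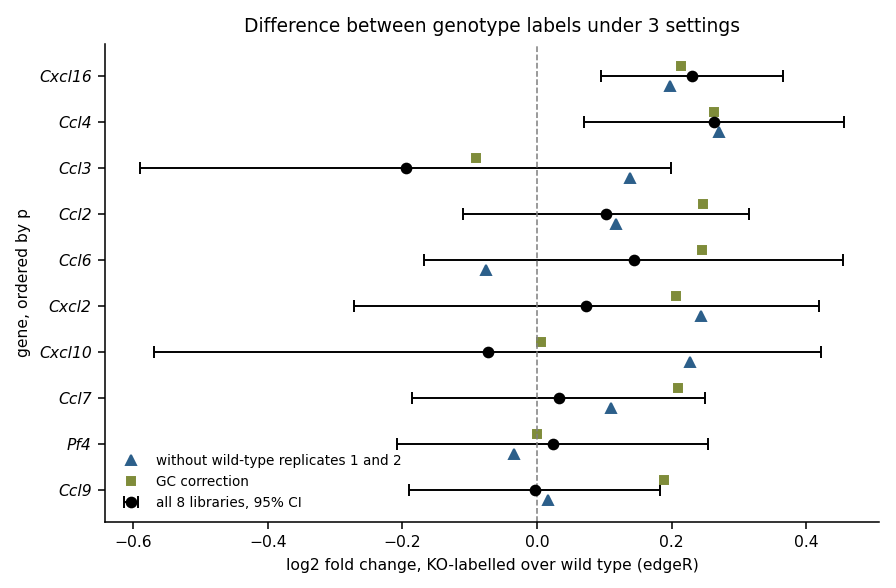
Log2 fold change between the genotype groups (horizontal axis; positive values are higher in KO) for each ligand gene (vertical axis) with all 8 libraries and its 95% confidence interval, without wild-type replicates 1 and 2, and after GC correction. Cxcl16 and Ccl4 keep their value under all 3 (0.20 to 0.23 and 0.26 to 0.27). Ccl3, Ccl6, Ccl9, Cxcl10 and Pf4 change sign without the 2 wild-type libraries (0.14, -0.08, 0.02, 0.23 and -0.03).

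The ligand genes did not share 1 pattern over the libraries. Wild-type replicates 1 and 2 were both above the other 6 libraries for Ccl3 and both below them for Ccl6 and Cxcl16, and they were on neither side as a pair for the other 7. Expressed as log2 of wild-type replicates 1 and 2 over replicates 3 and 4, the differences ran from 0.61 for Ccl3 and 0.52 for Cxcl10 to -0.48 for Ccl6. Ccl4 (0.01), Ccl2 (0.04) and Ccl9 (0.04) hardly differed between these pairs. The SD of log2 CPM over all 8 libraries had a median of 0.15 for the ligands and 0.22 for all genes, again not matched for level. It was below the latter for 7 ligands and above it for Ccl3 (0.28), Cxcl10 (0.30) and, narrowly, Ccl6 (0.22). Of the pairs of ligands, Ccl7 and Cxcl2 were closest in profile (root mean square difference of standardised log2 CPM 0.48 over 8 libraries), and Ccl3 and Ccl6 were farthest apart (1.85).

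**Figure D4:**
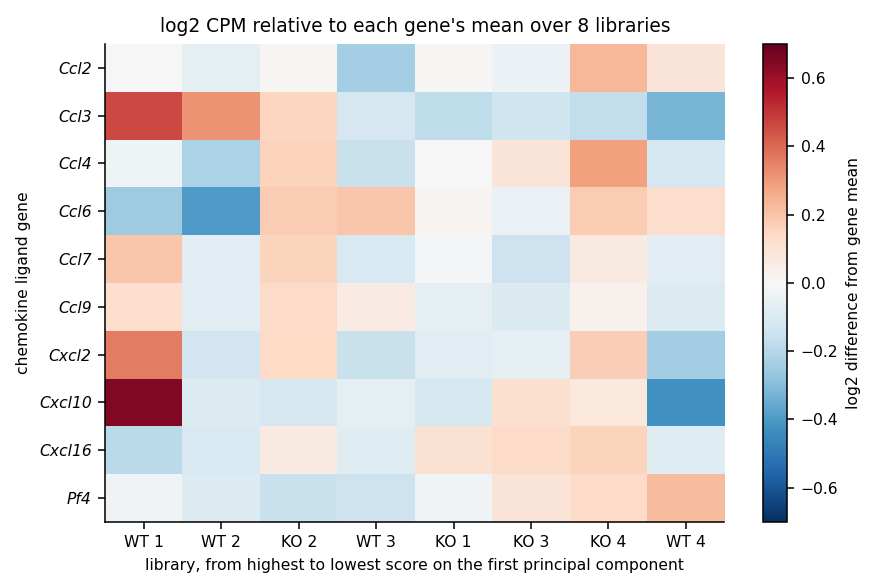
Log2 CPM of each ligand gene (rows) relative to its own mean over 8 libraries, with libraries (columns) ordered by their score on the first principal component, from 42.9 at the left to -24.6 at the right. Ccl3 goes from high at the left to low at the right and Ccl6 is lowest in the 2 leftmost libraries, while Ccl4 and Cxcl16 follow the genotype label.

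Genes whose profile was most like that of a ligand were sought by the same measure among 10301 genes averaging 1 or more on the log2 CPM scale. The nearest to Cxcl16 were Ppargc1b (0.28), Micall2 (0.31) and C87436 (0.31), against a median of 1.44 for all genes. For Ccl4 they were Ppap2a (0.30), Dtd1 (0.42) and Rab22a (0.42), with a median of 1.43, and for Ccl3 they were Tyw5 (0.12), Cyfip1 (0.12) and 1110032A03Rik (0.13), with a median of 1.39. The nearest of so many genes lie far below the median by selection, so these are only descriptions over 8 libraries of 1 experiment.

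Of 28 further chemokine ligand genes, 9 were tested and none passed, with 1 higher and 8 lower in the KO group and a median log2 fold change of -0.22. The median was 0.06 without wild-type replicates 1 and 2 and -0.16 after GC correction. Ccl12, which encodes the mouse monocyte attractant MCP-5 and is a Ccr2 ligand like Ccl2 and Ccl7, had 23.5, 25.9, 20.4 and 26.1 CPM in the KO group and 46.6, 38.7, 20 and 23.5 CPM in the wild-type group. As for Ccl3, the 2 high values belonged to wild-type replicates 1 and 2, and the log2 fold change turned from -0.42 to 0.14 without them and was -0.17 after GC correction. Ppbp had 1.49 to 1.76 CPM against 1.69 to 2.46 CPM (log2 fold change -0.37). Its 2 highest values were those of wild-type replicates 1 and 2, and the difference was -0.12 without them and -0.16 after GC correction. Ccl24, which encodes eotaxin-2, had 0.508 to 0.727 CPM against 0.506 to 1.44 CPM (-0.45, with -0.26 without those libraries and -0.51 after GC correction). Cxcl14 was the 1 gene with a higher value, 122 ± 8.24 against 114 ± 1.35 CPM (log2 fold change 0.11). Its log2 fold change was 0.10 without those libraries, and its sign changed after GC correction (-0.12). The edgeR adjusted p of these 4 genes was 0.404 to 0.411.

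The receptors for these ligands on the macrophages themselves were measured as well. Of 23 chemokine receptor genes 9 were tested, 4 higher and 5 lower in the KO group, with none past the threshold and a median log2 fold change of -0.08. Ccr1, the receptor for Ccl3, Ccl6 and Ccl9, had 40.8 ± 2.11 CPM in the KO group against 47.2 ± 6.31 CPM in the wild-type group. Ccr2, the receptor for Ccl2 and Ccl7, had 25.2 ± 4.87 against 28.0 ± 1.96 CPM. These log2 fold changes (-0.21 and -0.15) changed sign after GC correction, and without wild-type replicates 1 and 2 they were -0.35 and -0.10. Cxcr2, the receptor for Cxcl2, was at 1.44 ± 0.20 and 1.38 ± 0.32 CPM, and Cxcr3, the receptor for Cxcl10, at 2.0 ± 0.37 and 1.64 ± 0.40 CPM. Their log2 fold changes of 0.06 and 0.29 were 0.22 and 0.28 without those 2 libraries, and 0.18 and 0.12 after GC correction. Ccrl2, a member of the chemokine receptor family that does not signal, had 1.95 ± 0.19 against 1.49 ± 0.25 CPM. It was the 1 receptor gene with an unadjusted edgeR p under 0.05 (0.0452, adjusted 0.404), beside 6.52% of all genes. Its log2 fold change was 0.38, with 0.23 without those libraries and 0.39 after GC correction. Cxcr6 was not among the tested genes.

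Chemokines are cleaved by proteases and held on heparan sulfate, and 18 genes of these functions were tested. None passed, 12 were higher and 6 lower in the KO group, and the median log2 fold change was 0.19 (0.05 without wild-type replicates 1 and 2, 0.08 after GC correction). At an unadjusted p under 0.05 there were 2 of the 18, both higher, beside 2.01% of all genes. Adam10, the main protease that sheds Cxcl16 from resting cells, had 717, 805, 695 and 693 CPM in the KO group and 957, 976, 770 and 724 CPM in the wild-type group. Its highest values were again those of wild-type replicates 1 and 2, and its log2 fold change of -0.24 was -0.04 without them and -0.02 after GC correction. Adam17, which sheds Cxcl16 and Tnf from stimulated cells, had -0.17 with all libraries, 0.03 without those 2 and -0.04 after GC correction. Mmp14, a membrane metalloprotease, had 21.8, 16.8, 21.7 and 19.5 CPM against 8.10, 7.98, 12.2 and 19.4 CPM. Its log2 fold change of 0.74 (SE 0.27, edgeR adjusted p 0.404) was 0.61 after GC correction and 0.33 without those libraries. Rhbdf2, which brings Adam17 to the cell surface, and the syndecan gene Sdc3 had log2 fold changes of 0.35 and 0.34, of 0.12 and 0.13 without them, and of 0.07 and 0.05 after GC correction.

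NF-kB response genes were higher in the KO group in 18 of 21 tested, beside 49.3% of all genes, with none past the threshold. The list also holds subunits of NF-kB itself, such as Rela. Its median log2 fold change was 0.23, which was 0.10 without wild-type replicates 1 and 2 and 0.08 after GC correction. At an unadjusted p under 0.05 there were 7 of the 21, all higher, beside 2.01% of all genes, and the groups did not overlap in 4 of them, beside 1.22%. Those 4 were Tnf (52.1 ± 4.73 against 37.6 ± 5.07 CPM, log2 fold change 0.47), the interleukin gene Il1b (0.94 ± 0.25 against 0.52 ± 0.08 CPM, 0.83), Bcl3 (17.3 ± 1.65 against 14 ± 0.91 CPM, 0.30), which encodes an IkB-like regulator, and Tnfaip3 (39.7 ± 1.0 against 33.8 ± 2.87 CPM, 0.23), which encodes the inhibitor A20. Each had an edgeR adjusted p of 0.404. Without the 2 wild-type libraries these values were 0.32, 0.71, 0.28 and 0.20, and after GC correction 0.38, 0.91, -0.11 and 0.30. The sum over the 21 genes was 903 to 963 CPM in the KO group, 795 and 804 CPM in wild-type replicates 1 and 2, and 869 and 900.5 CPM in replicates 3 and 4. Beside these genes, Cxcl2 and Cxcl10, both with the NF-kB letters in their printed windows, differed by 0.07 and -0.07 on the log2 scale. Without the 2 wild-type libraries they differed by 0.24 and 0.23, and after GC correction by 0.21 and 0.01.

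Interferon response genes, the group to which Cxcl10 belongs, were split: 11 of 21 were higher and 10 lower in the KO group, with none past the threshold, none at an unadjusted p under 0.05 and a median log2 fold change of 0.01. Isg15, a ubiquitin-like protein gene, had 2.21 ± 0.36 against 1.65 ± 0.31 CPM (log2 fold change 0.41). This difference was 0.31 after GC correction and 0.20 without wild-type replicates 1 and 2. Oasl1 had 3.20 ± 0.24 against 2.37 ± 0.66 CPM (0.43), with 0.48 without those 2 libraries and 0.18 after GC correction. Ifih1, which encodes the RNA sensor MDA5, had 32.9 ± 2.10 against 41.0 ± 9.19 CPM (-0.31), with its 2 highest values in wild-type replicates 1 and 2, -0.02 without them and -0.11 after GC correction. The edgeR adjusted p of all 3 was 0.404.

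Markers of other cells that could supply chemokines were listed beside these values. Of 12 stromal markers 6 were tested, all lower in the KO group without passing, with a sum of 23 to 95 CPM in the KO group and 12.5 to 129 CPM in the wild-type group. Collagen gene Col1a2 had 6.96, 27.9, 10 and 15 CPM against 3.76, 13.7, 17.3 and 42.3 CPM, so KO replicate 2 and wild-type replicate 4 were highest. Of 13 neutrophil markers 12 were tested, with a sum of 289 to 325 CPM in the KO group and 327 to 368 CPM in the wild-type group. Log2 fold changes were positive for 5 of the 12 and negative for 7, with a median of -0.09 (-0.18 without wild-type replicates 1 and 2). At an unadjusted edgeR p under 0.05, 3 of the 12 were lower, beside 4.51% of all genes, and 0 were higher, beside 2.01%. The 3 were S100a9, S100a8 (24.8 ± 3.65 against 32.4 ± 4.15 CPM) and Lcn2 (14.3 ± 1.69 against 18.5 ± 2.80 CPM), each with an adjusted p of 0.404. Ly6g was not among the tested genes. Dendritic cell markers (6 tested) summed to 33.5 to 67 CPM in the KO group and 27.4 to 61.8 CPM in the wild-type group, and monocyte markers (5 tested) to 60.6 to 81.1 and 71.5 to 88.7 CPM. Of 6 mast cell and eosinophil markers only Prg2 was tested, at 0.24 to 1.04 CPM over the 8 libraries. The part of such cells in the ligand values was not tested.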

How the data were processed

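Messenger RNA libraries of 8 macrophage cultures were compared, 4 KO and 4 wild type, with replicates numbered in accession order. The members and gene lists were chosen with earlier results of these data known, and no list was tested as a set. The deposited read counts per gene were made by the authors with STAR and featureCounts, per the file headers; mm10 is the build in the submitters' processing notes. Strand setting and annotation release are not given there. The deposited log2 FPKM values, per the file headers, are scaled to gene length and library size. The offset added before the log is not given, so the lowest levels could be compressed. The deposited fold change, p-value and q-value columns hold a comparison by the authors whose tool is not given. Percentages of ribosomal, mitochondrial and uniquely mapped reads are also the authors', per the file headers, in the deposited mapping statistics.

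Counts were tested over all 11541 genes with edgeR 4.0.16 in R 4.3.3 (quasi-likelihood test, TMM factors, two-sided, Benjamini-Hochberg adjustment, threshold 0.05). The default expression filter removed no gene. Each gene already had at least 0.50 CPM (before TMM scaling) in 4 libraries, so shares of all genes are shares of expressed genes. CPM values are TMM-scaled, and per-gene values are mean ± SD with n = 4. For single ligands an exact two-sided permutation test was added, of log2 CPM (prior count 2) over 70 assignments, with a smallest p of 0.0286. On simulated counts for the same 4 against 4 design, over 11540 genes, edgeR recovered 38.6% of 1.5-fold, 81.1% of 2-fold and 97.1% of 3-fold changes. It also called 8 unchanged genes. Counts were simulated independently for each gene, without the library differences that run across genes in the real data. The rates therefore do not give the power of the real comparison. Named were the 10 ligands, up to 4 genes with the smallest p of the ligand, receptor and response lists, the ligands' receptors and the Cxcl16 sheddases; 1 receptor is not reported here. Marker lists were given by sums and examples.

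Alternatives, 17 in all, were DESeq2 1.42.0, upper-quartile or RLE factors, a filter of 1 CPM in 4 libraries or none, limma-voom 3.58.1, each library left out, wild-type replicates 1 and 2 left out together and the ribosomal percentage as a covariate. A correction for transcript GC content (96.29% of genes had a value) was added after seeing the data. The setting with no filter gave the main fit again, because the default filter removed no gene. Promoter windows are RefSeq's, matched by symbol. Overlaps and shared 50-base stretches came from the GENCODE annotation.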

Additional observations from a re-analysis of the deposited data

Results flagged for a closer look

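In 4 of 70 groups of 4 libraries (35 genes described above), 1 library lay far from the other 3 by Dixon's criterion, which chance meets in about 1 in 20 groups. Of these, 3 are ligand genes, out of 20 ligand groups. Ccl3 was highest in KO replicate 2, with 42.4 CPM against 33.7 to 34.7 CPM in the other KO libraries. Ccl7 was highest in wild-type replicate 1, with 443 CPM against 360 to 368 CPM in the other wild-type libraries, and Cxcl2 was highest in the same library, with 7.24 CPM against 4.77 to 5.13 CPM. The fourth was the NF-kB response gene Bcl3 in KO replicate 3, with 19.7 CPM against 16.2 to 16.7 CPM.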

How the results depend on the processing

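Whether a ligand is called depended on the tool. The count of called genes was 0 with edgeR in every setting and with limma-voom, and with DESeq2 it was 1 gene of the table, which was also 1 of the ligands, Cxcl16 (adjusted p 0.0456). At an unadjusted p under 0.05 edgeR had 752 genes with all libraries, 115 without wild-type replicates 1 and 2, 5207 without wild-type replicate 4 and 715 after GC correction, and limma-voom had 535. Cxcl16 and Ccl4 kept their direction and an unadjusted p under 0.05 in all 17 settings, and Ccl2 and Cxcl2 kept their direction in 17. The setting with no filter repeats the main fit and adds no check of its own. The exact permutation p of Ccl4 was 0.0286 to 0.0571 with 1 library left out.

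Some differences changed sign with the setting, and the cause was not tested. Without wild-type replicates 1 and 2 the log2 fold changes were 0.1375 for Ccl3, -0.0761 for Ccl6, 0.0167 for Ccl9, 0.2272 for Cxcl10, -0.0338 for Pf4, 0.1418 for Ccl12, 0.0328 for Adam17 and -0.0389 for Itga2b; the differences in mean log2 CPM used by the exact test were 0.1338, -0.0789, 0.0158, 0.2312 and -0.0262 for the 5 ligands. With the ribosomal percentage as a covariate they were 0.0057 for Ccl3, 0.0458 for Ccl9, 0.075 for Cxcl10 and -0.0619 for Pf4. GC correction gave 0.1883 for Ccl9, 0.0057 for Cxcl10, -0.1152 for Cxcl14, 0.0131 for Ccr1, 0.1126 for Ccr2 and -0.1053 for Bcl3. Upper-quartile factors gave 0.0348 for Ccl9, and in the exact test 0.0344 for Ccl9 and 0.01 for Cxcl10, and limma-voom gave 0.0036 for Cxcl10. With 1 library left out, log2 fold changes ranged from -0.0171 to 0.1068 for Ccl7, -0.0509 to 0.0353 for Ccl9, -0.2067 to 0.1798 for Cxcl10, -0.0206 to 0.1087 for Pf4, -0.0394 to 0.222 for Cxcr2 and -0.8605 to 0.3607 for Col1a2. The exact-test differences ranged from -0.0146 to 0.1026 for Ccl7, -0.0492 to 0.034 for Ccl9, -0.1723 to 0.1814 for Cxcl10 and -0.0178 to 0.1052 for Pf4.

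No paired analysis was possible because the labels give no replicate numbers that the groups share. Depth did not limit the abundant ligands, while Cxcl2 and Cxcl10 rest on 223 to 338 and 173 to 255 reads per library. In 4 against 4 libraries a change of 1.5-fold was mostly missed on simulated counts (38.6% recovered), which lacked the library differences of the real data.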
